A study of Mus musculus with 12 samples.

Results

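A group of 213 genes set the antibody-blocked samples of a mouse B cell lymphoma line apart from the other samples: 98 genes were higher and 115 lower in the blocked samples. They were chosen by their measured values. Levels are in CPM, a count divided by the library total and multiplied by 1000000. A member had a mean of at least 5 CPM over 12 libraries, and its 6 blocked libraries lay all above or all below the 6 other libraries. Symbols starting with Hist, Kif or Cenp were left out, as were Mki67, Irf4, Ebf1, Spib and Pdia3. Of 53379 gene identifiers, 8949 reached the mean of 5 CPM, and 221 genes met the rest of the rule, of which 8 were dropped by symbol. The dropped genes were Irf4, Ebf1, Mki67 and Cenpf, higher in the blocked libraries, and Spib, Pdia3, Cenpv and Hist2h2be, lower. The 213 members are 2.39% of the 8895 genes that could have become members, 1.1% higher and 1.29% lower. Since the rule used the blocked and the other libraries, their difference is described below and not tested.

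RNA carrying poly(A) tails was sequenced from an Eµ-myc cell line, C57BL/6 B lymphoma cells whose Myc transgene is under the enhancer of the immunoglobulin heavy chain locus, grown in RPMI with 10% FCS. The 4 groups of 3 libraries were unstimulated cells without added cytokine and cells given recombinant mouse interferon gamma (IFNg) at 5 ng/mL for 1 h, 6 h or 24 h. Exposure was ended by a neutralising antibody against IFNg, clone XMG1.2, at 50 µg/mL, and harvest was 24 h after stimulation began. The 1 h and 6 h groups are called the blocked libraries here. The labels do not say whether the 24 h or the unstimulated cells also received antibody, when unstimulated cells were collected, or whether the libraries of a group came from separate cultures. No group received antibody without IFNg, so antibody, handling and the brief IFNg exposure cannot be told apart. The p-values measure the spread between these libraries, which can be technical. In bulk RNA, fewer cells with a transcript and less of it per cell cannot be told apart either.

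IFNg binds its receptor and activates JAK kinases, whose signal leads to binding of gamma-activated sites in target genes. A neutralising antibody binds the cytokine outside the cell. The constant part of an antibody can also be bound by Fc receptors, of which B cells carry the inhibitory receptor Fcgr2b, which acts through the lipid phosphatase Inpp5d (SHIP1).

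The defining members were Atp1b1 and Slco1b2. Atp1b1 encodes the beta subunit of the sodium-potassium pump, which takes the pump to the cell surface, and lies on the minus strand at chr1:164437109-164458355 (GRCm38). Slco1b2 encodes an organic anion transporter best known from the liver and lies on the plus strand at chr6:141629518-141686646. The 250 bases before their start sites are shown because these genes had the largest differences among the higher members. They come from RefSeq's promoter table on GRCm38.p6, from chr1:164458356-164458605 on the minus strand and chr6:141629268-141629517 on the plus strand, 5′ to 3′. Capitals mark matches on either strand to the 15 motifs searched.
Atp1b1: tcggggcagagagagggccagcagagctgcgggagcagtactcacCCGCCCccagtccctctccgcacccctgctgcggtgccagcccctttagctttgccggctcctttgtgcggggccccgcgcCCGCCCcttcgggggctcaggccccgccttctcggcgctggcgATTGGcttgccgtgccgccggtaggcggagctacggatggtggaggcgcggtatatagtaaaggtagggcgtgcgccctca
Slco1b2: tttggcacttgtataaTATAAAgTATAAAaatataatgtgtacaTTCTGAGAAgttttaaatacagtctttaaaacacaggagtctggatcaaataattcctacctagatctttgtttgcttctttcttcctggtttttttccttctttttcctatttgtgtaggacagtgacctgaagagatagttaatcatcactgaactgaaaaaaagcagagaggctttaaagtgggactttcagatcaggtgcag
In the Atp1b1 stretch, the capitals are GC boxes (GGGCGG, here on the other strand) at positions -205 and -124, and a CCAAT box on the other strand at -81. In the Slco1b2 stretch, they are TATAAA at -234 and -227 and a gamma-activated site (TTCNNNGAA) at -206. Positions are those of the first capital, counted back from the start site. Such matches are descriptions of letters and not bound sites.

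Over windows from 250 bases before to 50 bases after the start, 170 of 213 members had an entry. TTCNNNGAA was in 7.4% of the 81 higher and 4.5% of the 89 lower members, beside 6.8% of 7056 genes at 5 CPM or more and 8.5% of all 27025 windows. CCAAT was in 50.6% and 44.9%, beside 40.1% and 37.9%. The GC box was in 60.5% and 71.9%, beside 67.8% and 35.9%, and TATAAA was in 3.7% and 7.9%, beside 6.0% and 14.2%. The cyclic AMP response element TGACGTCA was in 5 higher members (6.2%) and 1 lower member (1.1%), beside 3.8% and 1.9%. The E-box CACGTG, bound by MYC, was in 8.6% and 6.7%, beside 11.4% and 7.2%. No set of promoters was tested against another.

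Library totals ran from 49440358 to 67096610 counts. B cell markers were present in all libraries, with a summed level of 5490 to 5890 CPM, and the 12 markers of T and NK cells summed to at most 1.37 CPM, with Cd4, Cd8a and Trbc2 at 0. The 12 myeloid markers summed to at most 7.08 CPM, with S100a8, S100a9, Ly6g and C1qa at 0. The summed level of the 8 plasma cell markers moved with the groups. It was 704 to 734 CPM in unstimulated, 769 to 828 in 1 h, 801 to 830 in 6 h and 579 to 584 in 24 h libraries. Most of it came from Irf4 (mean 472 CPM) and Mzb1 (mean 217 CPM). The markers did not move together: over the 4 at 5 CPM or more, the median log2 ratio of blocked to other libraries was -0.084. Of the 6 tested, 3 rose and 1 fell from unstimulated to 24 h (edgeR adjusted p under 0.05). Among all genes at 5 CPM or more, 12.5% rose and 10.8% fell. The 10 fibroblast and endothelial markers summed to 60.2 to 61.8, 60.2 to 64.0, 66.6 to 71.9 and 90.1 to 94.0 CPM in the same order, nearly all from Pecam1 (mean 68.6 CPM), with Col3a1, Pdgfra, Kdr and Vwf among the 6 at 0. The part of these genes in the results was not tested.

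Most differences were small. Among the higher members the mean of the blocked libraries was 1.138 times the mean of the others at the median, with a range of 1.031 to 1.697, and among the lower members the mean of the others was 1.142 times that of the blocked libraries, with a range of 1.026 to 1.64. The gap, by which the lowest library of the upper set exceeded the highest of the lower set, had a median of 1.325% for higher and 1.466% for lower members. A gap of at least 5% was found for 15 higher and 12 lower members, and of at least 10% for 5 and 1. Among the widest, Slco1b2 had a gap of 28.8%, Atp1b1 26.7%, Rdm1 17.4%, Ap1ar 11.9%, Nuak1 11.1% and the predicted transcript Gm37206 10.6%.

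**Figure D1:**
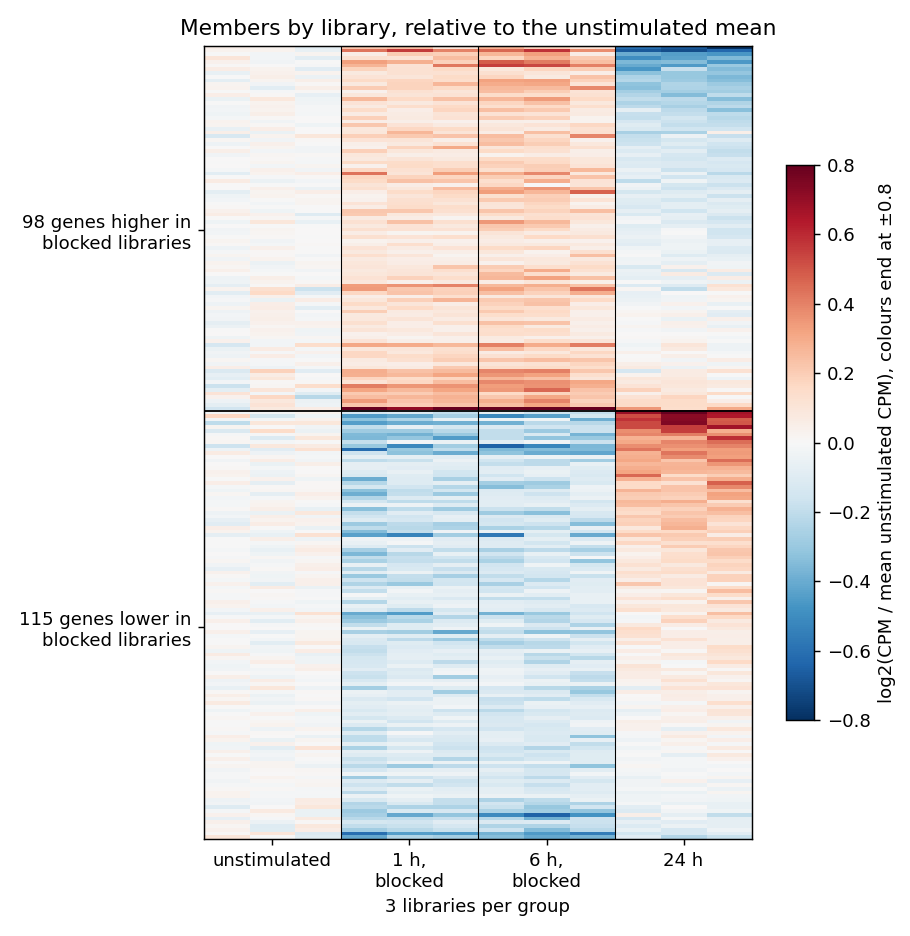
Each row is 1 of the 213 members and each column 1 of the 12 libraries, coloured by log2 of its CPM over the gene's unstimulated mean, with colours ending at ±0.8. Within each block, genes are ordered by their 24 h over unstimulated log2 fold change, so the strongest 24 h colours, opposite in sign to the blocked libraries, stand at the top of the 98 higher and of the 115 lower members.

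Among pump subunits and transporters, Atp1b1 stood at 49.6, 49.6 and 46.6 CPM in the unstimulated libraries. It stood at 65.3, 71.6 and 63.9 CPM in the 1 h, and at 66.8, 72.4 and 62.8 CPM in the 6 h libraries. In the 24 h libraries it stood at 30.5, 29.7 and 31.4 CPM. The 4 groups thus formed 3 separate levels, with 1 h and 6 h overlapping at the top, unstimulated in the middle and 24 h lowest. From unstimulated to 24 h, Atp1b1 fell by 0.67 on the log2 scale (SE 0.0581, edgeR quasi-likelihood test, Benjamini-Hochberg adjusted p = 5.25e-10). Its exons overlap Nme7 on the other strand, whose mean was 19.7 CPM and whose log2 ratio of blocked to other libraries was -0.05. With the strand setting of the counting not given, reads of such partners cannot be told apart.

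Slco1b2 stood at 5.06, 5.95 and 5.86 CPM in unstimulated and at 10.0, 9.19 and 10.3 CPM in 1 h libraries. It stood at 11, 9.97 and 11 CPM in 6 h and at 7.14, 6.21 and 6.93 CPM in 24 h libraries. The lowest blocked library thus lay above the highest of the other 6, and the 24 h libraries lay just above the unstimulated ones. That difference was 0.27 log2 (SE 0.101, edgeR adjusted p = 0.06) and did not pass the threshold, but it passed with DESeq2 (adjusted p = 0.0494), with a filter of at least 1 CPM in 3 libraries (0.0496) and without 24 h replicate 2 (0.0497). Of the 13 organic anion transporters listed, 9 were at 0 in all libraries and 2 reached 5 CPM. The other of these 2, Slco4a1 (mean 21.9 CPM), was no member, since its blocked and other libraries overlapped. Its log2 ratio of blocked to other libraries was 0.39. Unlike Slco1b2, it fell from unstimulated to 24 h, by 0.67 log2 (edgeR adjusted p = 5.71e-08).

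Other transport genes were set on either side. Fxyd5, a small membrane protein that modulates the sodium-potassium pump, was lower in blocked libraries, at 21.6 ± 0.975 CPM (SD, n = 3, as for all such values below) after 1 h and 23.6 ± 1.02 after 6 h, beside 26.1 ± 1.02 unstimulated and 30.2 ± 1.28 after 24 h. Slc16a1, a lactate transporter, was higher, at 424 ± 4.15 and 436 ± 10.2 CPM beside 399 ± 1.76 and 365 ± 4.74. The amino acid transporter chain Slc3a2 was lower by little, at 126 ± 2.98 and 125 ± 3.08 CPM beside 134 ± 2.13 and 133 ± 1.46. Between unstimulated and 24 h cells, Fxyd5 rose (log2 0.21, edgeR adjusted p = 0.0143) and Slc16a1 fell by 0.12 (adjusted p = 0.0207). The Fxyd5 call was lost without 24 h replicate 3 or unstimulated replicate 3 (highest adjusted p 0.0747), and that of Slc16a1 without 24 h replicate 1 or 2 or unstimulated replicate 1 or 3 (highest 0.0774).

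Among surface receptors, Cd36, a scavenger receptor that takes up fatty acids and oxidised lipoproteins, stood at 44.7, 43.9 and 42.0 CPM in unstimulated and 44.9, 41.3 and 38.0 CPM in 24 h libraries. It stood at 36.2, 32.8 and 35.0 CPM in 1 h and at 30.5, 27.8 and 31.2 CPM in 6 h libraries. The unstimulated and 24 h libraries overlapped, and every 6 h library lay below every 1 h library. Neither the 24 h difference (log2 -0.07, edgeR adjusted p = 0.508) nor the 6 h to 1 h difference (adjusted p = 0.361) passed. Itgav, an integrin alpha chain that binds matrix proteins, was higher in the blocked libraries, at 89.7 ± 3.12 and 92.2 ± 5.73 CPM beside 77.1 ± 3.96 unstimulated and 65.0 ± 3.54 after 24 h, and fell by 0.24 log2 from unstimulated to 24 h (SE 0.0538, adjusted p = 0.00158). Gfra1, a coreceptor for the growth factor GDNF, fell the most of the higher members at 24 h, by 0.69 log2 (SE 0.0652, adjusted p = 2.89e-09), from 35.0 ± 1.64 to 21.7 ± 1.46 CPM, with 39.8 ± 2.08 and 40.1 ± 2.33 in the blocked groups.

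The members among the B cell markers and antigen receptor genes listed were all lower, but the lists as a whole were not. The median log2 ratio of blocked to other libraries was 0.077 over the 12 B cell markers and 0.004 over the 16 measured receptor genes, beside -0.007 over all genes at 5 CPM or more. Among the genes that were no members, the ratio was 0.18 for Pax5, 0.13 for Blnk, 0.49 for Vpreb1, 0.54 for Igll1, 0.22 for Syk and 0.22 for Cd72. It was -0.13 for Pik3cd, -0.04 for Vav1 and -0.02 for Btk, Ptpn6 and Cd79a. For Igll1, Vpreb1 and Pax5, blocked and unstimulated libraries overlapped and the 24 h libraries lay lowest. Igll1 ran from 24.3 to 29.1 CPM in unstimulated, 23.9 to 30.2 in blocked and 9.67 to 11.5 in 24 h libraries. The marker Ebf1 (0.39) met the rest of the rule as higher and was dropped by symbol. Ms4a1 (CD20), a surface protein of mature B cells, stood at 7.48, 9.14 and 9.16 CPM in unstimulated, 6.33, 6.53 and 6.59 in 1 h, 6.57, 7.41 and 7.37 in 6 h and 12.4, 14.4 and 12.1 in 24 h libraries. The 24 h libraries lay above all the rest, and the lowest unstimulated library lay 0.928% above the highest blocked one. Ms4a1 rose by 0.60 log2 from unstimulated to 24 h (SE 0.0978, edgeR adjusted p = 4.22e-05). Of the 16 measured genes of the B cell receptor list, 3 were members and all were lower: the inhibitory lectin Cd22, the coreceptor partner Cd81 and the scaffold Bank1. At 24 h Cd22 rose from 275 ± 8.38 to 316 ± 4.73 CPM and Bank1 from 188 ± 2.49 to 221 ± 12.9 CPM (edgeR adjusted p = 0.000295 and 0.000275). Cd81, at 67.3 ± 1.81 and 74.2 ± 4.42 CPM, was at the threshold (adjusted p = 0.0493), and under 7 alternatives, among them limma-voom and leaving out 1 h replicate 3, 24 h replicate 2 or 3, or unstimulated replicate 1 or 2, it did not pass (highest p 0.23). Ighm, the heavy chain of the membrane receptor, was a member at a log2 ratio of -0.04, with libraries from 2805 to 2876 CPM in the blocked and 2880 to 3006 CPM in the other set. With each library's trend on exon length removed, the Ighm ratio was -0.002.

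The list of Fc receptors and their signalling held 5 genes at 5 CPM or more, of which 1, Inpp5d, was a member. Inpp5d stood at 286, 285 and 289 CPM in unstimulated, 293, 312 and 307 in 1 h, 339, 328 and 310 in 6 h and 237, 238 and 237 in 24 h libraries. Its blocked libraries began 1.35% above the unstimulated ones, and it fell by 0.27 log2 from unstimulated to 24 h (SE 0.0409, edgeR adjusted p = 1.25e-05). Fcgr2b, no member, had means of 200 ± 8.79 CPM unstimulated, 210 ± 8.25 after 1 h, 226 ± 5.68 after 6 h and 196 ± 5.02 after 24 h, and its 2 sets of libraries overlapped.

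Kinases and regulators of small GTPases were on either side. Nuak1, a kinase related to AMPK, was higher, at 36.0 ± 1.86 and 39.0 ± 3.4 CPM in blocked libraries beside 29.9 ± 0.632 unstimulated and 22.8 ± 0.965 after 24 h. Its paralog Nuak2 was lower, at 9.46 ± 0.639 and 9.58 ± 1.33 CPM beside 12.2 ± 1.33 and 19.0 ± 1.31, with a gap of 0.344%. At 24 h the paralogs differed in sign: Nuak1 fell by 0.39 log2 (edgeR adjusted p = 9.03e-05) and Nuak2 rose by 0.63 (adjusted p = 9.29e-06). Plekhg1, an exchange factor for small GTPases, was higher at 20.1 ± 2.11 and 23.4 ± 1.3 CPM beside 16.6 ± 0.099 and 12.7 ± 0.72. Rasal1, which switches off Ras, was higher at 42.3 ± 2.21 and 44.0 ± 1.73 CPM beside 37.8 ± 2.46 and 28.1 ± 1.38. Ralgps2, an exchange factor for Ral, was lower at 89.8 ± 2.81 and 90.6 ± 5.14 CPM beside 106 ± 2.84 and 105 ± 1.39, and its unstimulated and 24 h libraries overlapped (edgeR adjusted p = 0.976).

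**Figure D2:**
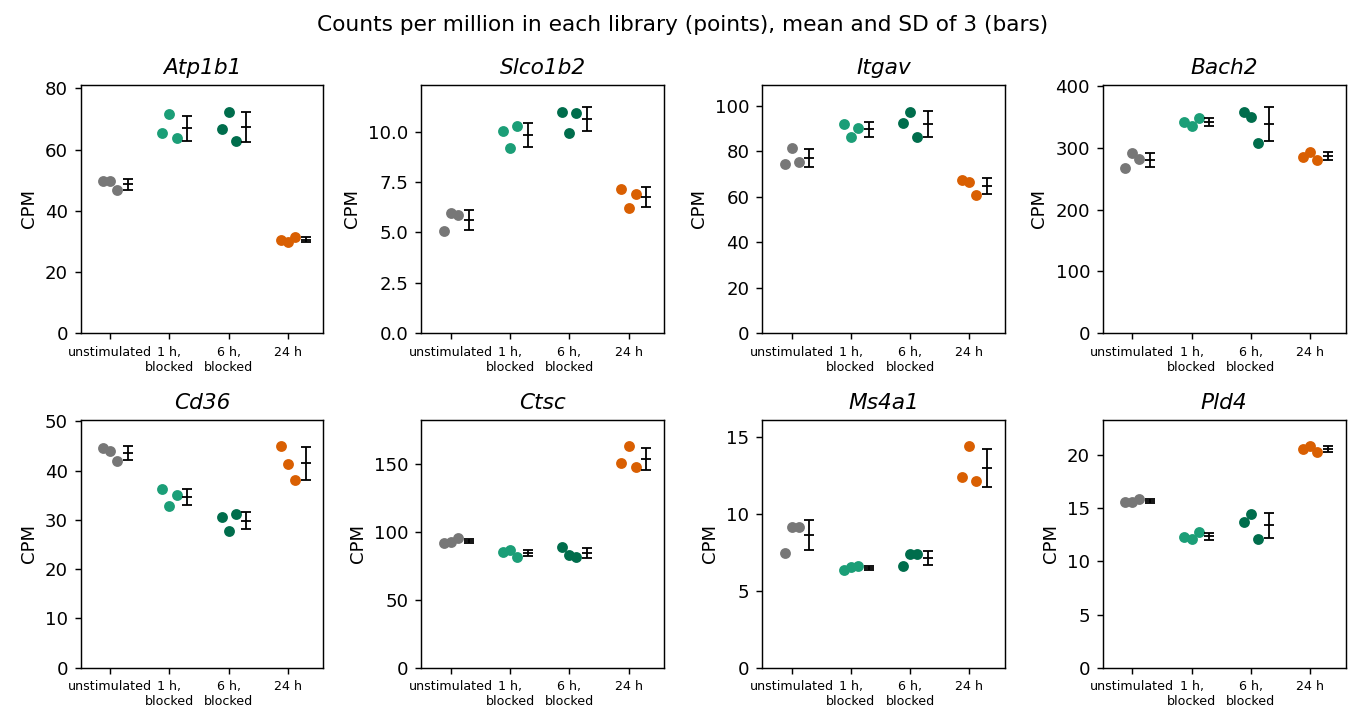
Points are the CPM of each library for 8 members, by group, with the mean and SD of 3 libraries beside them, and every axis starts at 0. In the top row (Atp1b1, Slco1b2, Itgav, Bach2) the 6 blocked libraries lie above the other 6, and in the bottom row (Cd36, Ctsc, Ms4a1, Pld4) below, while the 24 h points are apart from the unstimulated ones for Atp1b1, Slco1b2, Itgav, Ctsc, Ms4a1 and Pld4.

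Among transcription factors, Bach2, a repressor that holds back plasma cell differentiation, stood at 268, 292 and 282 CPM in unstimulated and 286, 294 and 280 in 24 h libraries. It stood at 342, 335 and 350 CPM in 1 h and 359, 350 and 308 in 6 h libraries. The ranges of the unstimulated and 24 h libraries overlapped, and all blocked libraries lay above them, by 4.79% or more. Foxo1, needed for B cell development, was higher by less, at 207 ± 3.06 and 216 ± 11.4 CPM beside 192 ± 8.12 and 193 ± 8.14. The other 15 B cell transcription factors at 5 CPM or more were no members. Of these, Irf4 (log2 ratio 0.55) and Ebf1 (0.39) met the rest of the rule as higher and Spib (-0.17) as lower. They were left out by symbol only. Hivep2, a zinc finger protein, was higher at 74.5 ± 0.895 and 81.2 ± 4.58 CPM beside 66.9 ± 3.03 and 54.9 ± 2.05. The AP-1 subunit Junb (18.6 ± 1.94 and 19.7 ± 0.841 CPM beside 21.5 ± 0.499 and 23.6 ± 1.55) and Ier5 (30.8 ± 1.74 and 29.0 ± 1.87 beside 33.8 ± 1.47 and 40.6 ± 5.7), both immediate early genes, were lower. Nfe2l2 (NRF2), which drives antioxidant genes, was lower and rose at 24 h by 0.34 log2 (edgeR adjusted p = 2.83e-07). The Ier5 rise of 0.27 log2 at 24 h (adjusted p = 0.0121) was lost without 24 h replicate 3 (edgeR adjusted p = 0.15) or unstimulated replicate 2 (0.0562).

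Ctsc, a lower member and a protease that activates granule serine proteases, stood at 91.7, 92.7 and 95 CPM in unstimulated, 85.0, 86.5 and 81.8 in 1 h, 88.6, 82.9 and 81.5 in 6 h and 151, 163 and 148 in 24 h libraries. Here the blocked libraries lay little below the unstimulated ones, while the 24 h libraries were far above: the 24 h rise of 0.73 log2 (SE 0.0477, edgeR adjusted p = 8.92e-13) was the largest among all members. Scpep1, a serine carboxypeptidase, had the same order, at 43.4 ± 1.97 and 42.8 ± 0.919 CPM beside 47.5 ± 0.838 and 71.3 ± 3.84. The cathepsin Ctsh stood at 7.81 ± 0.652 and 7.36 ± 0.265 CPM beside 9.57 ± 0.384 and 12.2 ± 0.632. Pld4, an endosomal exonuclease for single-stranded nucleic acids, stood at 12.3 ± 0.347 and 13.4 ± 1.18 CPM beside 15.7 ± 0.185 and 20.5 ± 0.291. Napsa, an aspartic protease, stood at 95.4 ± 3.7 and 101 ± 1.82 CPM beside 113 ± 2.31 and 123 ± 5.2. Of these 5 enzymes, placed together after their values were seen, Ctsc, Scpep1, Ctsh and Pld4 rose at 24 h and Napsa was not called (edgeR adjusted p = 0.0516). The lower members Psap, Gla, Naaa and Lamp1, which encode other lysosomal proteins, were not called at 24 h either (log2 0.01, -0.04, 0.13 and -0.07), so no common change is read from these genes. Tmem173 (STING), the adaptor for cytosolic DNA sensing, stood at 16.4 ± 0.772 and 17.6 ± 0.787 CPM in blocked libraries beside 21.2 ± 1.47 and 27.8 ± 3.67, and rose by 0.39 log2 at 24 h (adjusted p = 0.000634).

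Of the 20 genes listed for folding in the endoplasmic reticulum, 3 were members, all lower: the chaperones Calr and Hsp90b1 and the secreted factor Manf. Pdia3 also met the rest of the rule as lower (log2 ratio -0.33) and was dropped by symbol. The median log2 ratio over the 20 genes was -0.164, beside -0.007 over all genes at 5 CPM or more. The ratio was positive for Sel1l (0.03) and Herpud1 (0.08). At 24 h, 12 of the 20 rose and 1 fell (edgeR), beside 12.5% and 10.8% of all genes at 5 CPM or more. Calr stood at 623, 599 and 643 CPM in unstimulated, 591, 590 and 585 in 1 h, 545, 538 and 597 in 6 h and 747, 751 and 793 in 24 h libraries. The lowest unstimulated library of Calr lay 0.311% above 6 h replicate 3, while the 24 h libraries stood clear of the rest. Calr rose by 0.30 log2 at 24 h (edgeR adjusted p = 7.64e-06) and Manf by 0.21 (0.00551), and Hsp90b1 at 0.10 did not pass (0.0975), except without 24 h replicate 3 (0.0487) or 6 h replicate 3 (0.0417). The other listed members were Kdm3a, Ckap5 and Chd6 among the higher and Pfkp and Zmat3 among the lower genes, with log2 ratios between -0.13 and 0.22.

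The remaining members with large ratios lay on either side. Among the higher ones, the adhesion protein Igsf3 stood at 26.8 ± 1.43 and 28.2 ± 2.66 CPM in the blocked groups beside 24.1 ± 0.395 unstimulated and 17.9 ± 0.423 after 24 h. Klhl6, a ubiquitin ligase adaptor of germinal centre B cells, stood at 89.9 ± 1.55 and 97.8 ± 4.94 CPM beside 79.4 ± 3.86 and 65.4 ± 2.18, and Pcnx at 89.3 ± 5.78 and 93.4 ± 7.06 CPM beside 79.0 ± 1.35 and 64.9 ± 1.83. All 3 fell at 24 h (edgeR adjusted p = 3.27e-05, 0.000147 and 0.000289). BC005561 stood at 31.0 ± 3.55 and 30.1 ± 3.18 CPM beside 25.2 ± 1.25 and 23.2 ± 1.41, with no call at 24 h (adjusted p = 0.39). Among the lower ones, the proteoglycan Srgn of secretory granules stood at 113 ± 2.77 and 117 ± 4.87 CPM beside 136 ± 13.1 and 180 ± 17.2. Eif4e3, which binds the mRNA cap, stood at 5.18 ± 0.506 and 5.39 ± 0.714 CPM beside 5.98 ± 0.135 and 9.05 ± 0.781. St3gal6, a sialyltransferase, stood at 5.19 ± 0.45 and 4.7 ± 0.473 CPM beside 6.67 ± 0.626 and 8.67 ± 0.0958, and Nacc2, a transcriptional repressor, at 7.66 ± 1.11 and 7.71 ± 0.0396 CPM beside 9.86 ± 0.787 and 12.7 ± 0.48. These 4 rose at 24 h (edgeR adjusted p = 7.86e-05, 0.000214, 0.0117 and 0.00677), though St3gal6 did not pass without unstimulated replicate 1 (0.0853). The kinase Camk2a, at 5.65 ± 0.505 and 5.85 ± 0.903 CPM beside 7.52 ± 0.588 and 8.43 ± 0.522, was not called (adjusted p = 0.334).

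Of the 342 listed genes at 5 CPM or more, 26 were members, beside 2.39% of all genes that could have become members. The same share stands beside the counts of members in each list above. None of the 23 measured genes of the IFNg pathway list was a member, nor any of the lists of heat shock, DNA replication, ribosome biogenesis, chemokines or mitochondrially encoded transcripts. The IFNg list summed to 860 to 893 CPM in unstimulated, 979 to 1004 in 1 h, 1165 to 1252 in 6 h and 5482 to 5536 in 24 h libraries, an order by exposure in which the blocked groups lie between the others. A gene whose blocked groups lie between the others cannot meet the rule, and at the share of all genes a short list holds few members. A list without members is therefore not read as a result. The lists were chosen with results of these data known, so these counts are descriptions.

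The comparison of 24 h with unstimulated cells bears on whether the members differed in blocked cells alone. Of the 98 higher members, 27 fell, 1 (Klhl24, an adaptor of ubiquitin ligases) rose and 70 were not called. Of the 115 lower members, 36 rose, 0 fell and 79 were not called (edgeR, adjusted p under 0.05). Of the 8949 genes at 5 CPM or more, 12.5% rose and 10.8% fell. The call of Klhl24 was lost without 24 h replicate 2 or unstimulated replicate 1 or 3. In all, 64 of 213 (30.05%) were called, beside 23.3% of those genes and 18.7% of the 14299 genes tested. Without unstimulated replicate 1, 23 higher members fell and 31 lower members rose, while over all genes tested the number that fell went from 1194 to 708 and the number that rose from 1473 to 1108. The label under which the genes were collected, a shift in blocked samples only, therefore does not describe these 64. The 24 h mean lay farther from the blocked libraries than the unstimulated mean for 78 of 98 higher and 93 of 115 lower members, and the 24 h change was larger than the mean blocked change for 29 and 41. The rule favours this direction, since a gene that moved at 24 h toward the blocked libraries could lose its place, so the direction is not independent evidence.

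**Figure D3:**
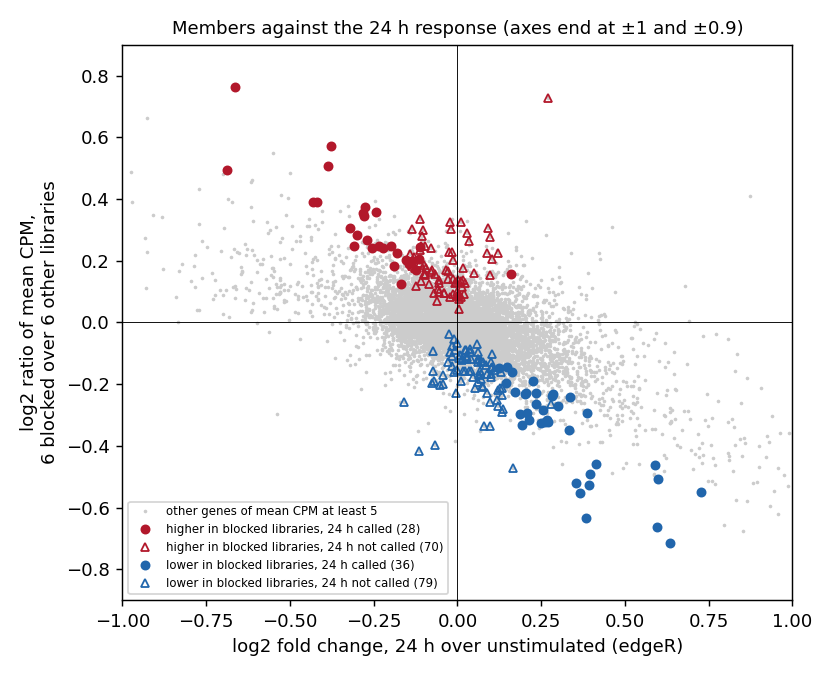
Each point is a gene at 5 CPM or more, with the log2 fold change of 24 h over unstimulated (edgeR) across and the log2 ratio of mean CPM in blocked over other libraries upward, red for higher and blue for lower members, filled where the 24 h difference was called, and genes beyond the axes are not drawn. The axes share the 24 h and unstimulated libraries, so the slope is partly built in, and Slco1b2 stands alone at the upper right, at 0.27 and 0.73.

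Against unstimulated cells, the contrast the rule used, 10 higher and 8 lower members were called at 1 h (edgeR; 0.369% of genes at 5 CPM or more were called higher and 0.212% lower) and 32 and 13 at 6 h (1.63% and 0.648%). Of the members, 66 of 98 higher and 99 of 115 lower ones were called at neither time. Since the rule used these libraries, nothing is read from these counts. Called in both were the higher members Cplx2, Atp1b1, Itgav, Slco1b2, Bach2, Arel1, C1galt1, Cysltr1, Klhl24 and Ap1ar and the lower members Napsa, Cd36, Rdm1, Ralgps2 and Mreg. Of these 15, 6 higher and 5 lower genes were not called at 24 h: Cplx2, Slco1b2, Bach2, Arel1, C1galt1, Cysltr1, Napsa, Cd36, Rdm1, Ralgps2 and Mreg. Rdm1, linked to DNA repair, stood at 8.63, 9.16 and 7.89 CPM in unstimulated, 5.64, 6.32 and 6.25 in 1 h, 6.59, 6.26 and 5.84 in 6 h and 7.74, 7.82 and 8.05 in 24 h libraries. Its unstimulated and 24 h libraries overlapped, as did its 1 h and 6 h libraries. Cysltr1, a leukotriene receptor, stood at 175 ± 3.66 and 181 ± 14.4 CPM beside 142 ± 8.72 and 152 ± 9.38, and C1galt1, which extends O-linked sugars, at 230 ± 9.55 and 231 ± 17.4 CPM beside 189 ± 9.98 and 205 ± 7.35. Cplx2, a complexin of regulated secretion, stood at 295, 306 and 324 CPM in 1 h and 357, 352 and 338 in 6 h libraries, beside 273 ± 3.55 and 290 ± 2.5, so that every 6 h library lay above every 1 h library.

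Among the members, the 1 h and 6 h groups were close to each other. The rule favours this, since both groups had to lie on the same side of the other libraries. Outside the members, 6 of the 25 tested genes of the IFNg list were called higher at 6 h (edgeR). With edgeR, none of the 213 members was called between 6 h and 1 h (0.0979% of all genes tested and 0.156% of those at 5 CPM or more were), 12 had an unadjusted p under 0.05, DESeq2 called 2 and limma-voom none. The median absolute difference was 0.034 log2, beside 0.04 over all genes at 5 CPM or more, with a median SE of 0.05. The 6 h mean lay farther from the other libraries than the 1 h mean for 74 of 98 higher and 61 of 115 lower members. A missed threshold does not show that the groups were alike.

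Members differed from other genes in exon length. The median summed exon length was 7292 bases for higher and 3529 bases for lower members, beside 4663 for all genes at 5 CPM or more. From the shortest to the longest of 4 equal bins of genes, 6, 13, 28 and 51 were higher members and 41, 38, 22 and 14 lower members. The median GC content of the longest transcript was 46.76% for higher, 50.77% for lower and 48.93% for all. Across the 8945 genes with a length, Spearman's rank correlation of length with the log2 ratio of blocked to other libraries was 0.251, and that of GC content was -0.072. Genes share libraries and are not independent, so no p is given. The longest minus the shortest bin, as a median log2 difference in each library, ran from -0.074 to -0.004 in unstimulated, 0 to 0.035 in 1 h, -0.053 to 0.099 in 6 h and -0.075 to 0.009 in 24 h libraries. When the trend on exon length was taken out of every library, 95 higher and 109 lower genes met the rule, 70 and 74 of them original members. The part of length in the members' differences beyond these counts was not tested.

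**Figure D4:**
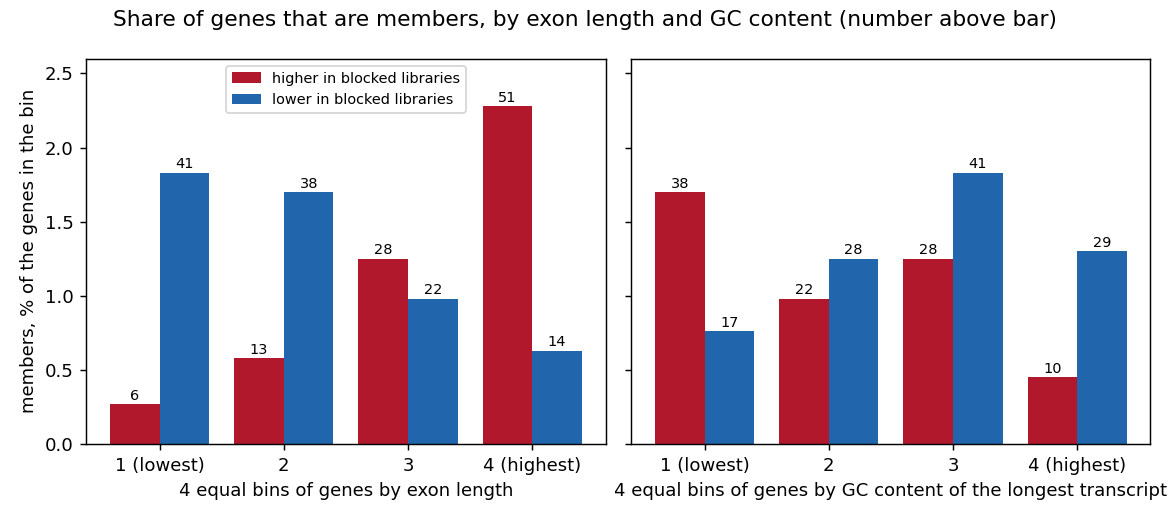
Bars show the share of genes at 5 CPM or more that are higher (red) or lower (blue) members, in 4 equal bins of exon length (left) and GC content (right), with the number of members above each bar. Higher members make up 0.27% of the shortest and 2.28% of the longest bin, and lower members 1.83% and 0.63%.

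Of the 213 members, 206 code for proteins, and 72 overlap an annotated gene on the other strand (34.7% of higher and 33.0% of lower members, beside 32.5% of all genes at 5 CPM or more). Besides Atp1b1, these include Itgav, Bach2, Gfra1, Hivep2, Ap1ar, Arel1, Cd22, Cd81, Napsa, Nacc2, St3gal6, Scpep1, Junb, Hsp90b1, Manf and Pfkp. Of 28 pairs whose partner reached 5 CPM, no partner was itself a member, and 17 partners had the same sign of the log2 ratio.

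Membership turned on narrow margins and on single libraries. Just inside the limit of 5 CPM were Parp8 at 5.10, Acss2 at 5.55 and St3gal6 at 6.31 CPM, and just outside Gm36120 at 4.53, 4930509E16Rik at 4.14 and Parp16 at 4.09 CPM. The smallest gaps inside were those of Kdm1a (0.00587%), Man2c1 (0.015%) and Bsg (0.0578%), and the smallest overlaps outside those of Tnfrsf1b (-0.0223%), Gemin6 (-0.0227%) and Pomt1 (-0.0444%). Without unstimulated replicate 2, 227 higher and 209 lower genes met the rule, and without 6 h replicate 3, 204 and 195. Leaving out a library can add genes but not remove members, apart from those whose mean would fall below the limit, of which there were 0. With each of the other 10 libraries left out in turn, 104 to 142 higher and 122 to 172 lower genes met it.

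**Figure D5:**
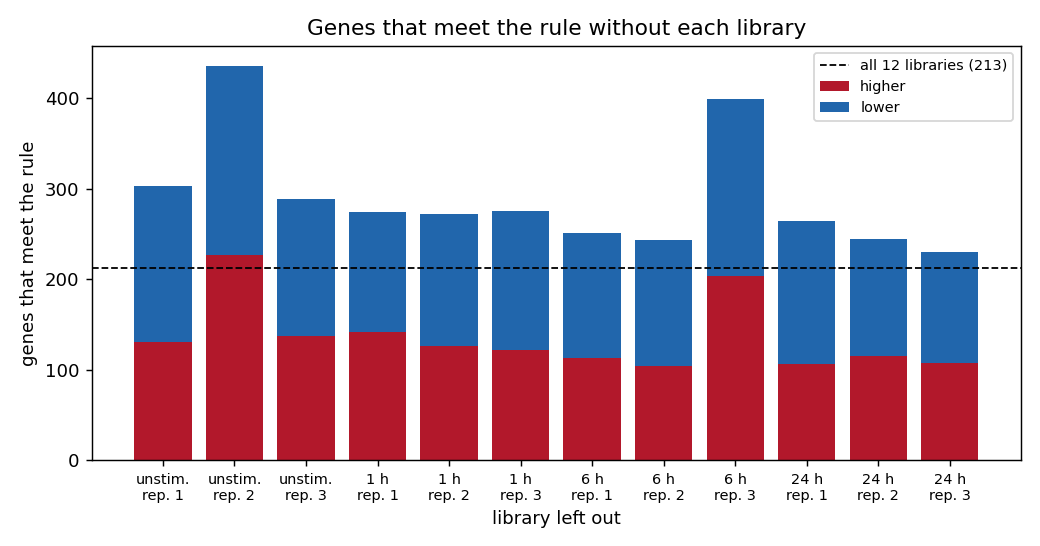
Bars give the number of genes, higher (red) and lower (blue), that meet the rule without each of the 12 libraries in turn, and the dashed line marks the 213 members found with all libraries. The bars for unstimulated replicate 2 (227 and 209) and 6 h replicate 3 (204 and 195) are the tallest.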

How the data were processed

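Processing with STAR 2.5.2a, Picard and featureCounts 1.4.3-p1 on mm10 is named in the submitters' processing notes. Which annotation was counted, and with which strand setting, is not given in the sources used here. For 12 libraries, raw counts by gene were deposited in 1 table. Its header doubles some separators, so names were matched to columns in order and to sample titles. Between 69.9% and 73.9% of counts from 1 to 20 were even, so that a count carries less information than an independent fragment. CPM here is a count over the library total, times 1000000. Of 53379 identifiers, 53274 had a symbol. Exon lengths, GC content and coordinates came from GENCODE M21 (GRCm38), where identifier versions can differ from those of the authors, and promoters from RefSeq (GRCm38.p6).

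For tests, the counts were filtered with filterByExpr, scaled by TMM (factors 0.9848 to 1.01) and fitted over 4 groups with robust quasi-likelihood F tests in edgeR 4.0.16 (R 4.3.3, limma 3.58.1, 8 residual degrees of freedom, common biological coefficient of variation 0.0579). Adjusted p-values are Benjamini-Hochberg values over 14299 genes, with a threshold of 0.05, and the SE is the fold change over the square root of F. The code was tested on simulated data. No pair of libraries within a group agreed within sampling noise (chi-square per degree of freedom 2.526 to 8.483, computed on halved counts). Alternatives were DESeq2 1.42.0, limma-voom, other filters and scalings, and left-out libraries. Removal of trends on length or GC content from the tests and halved counts were added after seeing the data.

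The members, lists and tests were chosen with earlier results of these data known. Named genes are Atp1b1 and Slco1b2, the 12 higher and 12 lower members with the largest log2 ratio, members in a list, the largest changes among called members, and the genes at the edges of the rule. Others, such as members called in both blocked groups or with a wide gap, were chosen after their values were seen. Results of some genes that this rule takes are left out of the text.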

Additional observations from a re-analysis of the deposited data

How the results depend on the processing

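The size of the gene set depended on the rule more than on the scaling. A gap of at least 5% left 15 higher and 12 lower members. Leaving out a library gave 104 to 227 higher and 122 to 209 lower genes, most without unstimulated replicate 2 or 6 h replicate 3. TMM scaling gave 121 and 97 genes (91 and 92 original members), RLE size factors 109 and 100, a minimum of 1 CPM 115 and 125, a minimum of 10 CPM 91 and 101, and removal of the GC trend 137 and 110 (76 and 77 original members).

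For 24 h against unstimulated, the counts of higher members falling (21 to 31) and lower members rising (30 to 42) stayed within 1.5 times under the alternatives run. Higher members rising numbered 1, beside 2 with DESeq2, either other filter, or without 6 h replicate 3 or unstimulated replicate 2, and 0 without unstimulated replicate 1 or 3. The replicate block gave 1525 higher and 1221 lower genes, beside 1473 and 1194 without it, with 28 higher members falling and 35 lower members rising. For 6 h against 1 h, 14 genes were called in all, beside 34 with DESeq2, 36 with at least 1 count in any library, 9 with limma-voom, 9 in a fit to the 6 libraries compared and 8 to 24 without single libraries (8 without 1 h replicate 2 or 3, 9 without 1 h replicate 1, 24 without 6 h replicate 3). Higher members called were 0, beside 2 with DESeq2, 1 with at least 1 count in any library, 1 with the replicate block, 1 with the block and length trend removal together, and 0 to 1 without single libraries (1 without 6 h replicate 2 or 3). The cause was not tested. The labels do not say whether the replicate numbers mark a pairing or a batch. Deviations of same-numbered libraries correlated at -0.308 to 0.232 and those of other pairs at -0.313 to 0.217, while 8 of 12 libraries correlated best with their own number. The main fit took no account of the numbers, and whether they mark a shared batch was not tested.

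Among the alternatives run, no named member reversed the sign of its log2 ratio of blocked to other libraries, and no called difference reversed. Changes of sign in differences that were not called were not counted. Named 24 h calls lost under some alternative were those of Cd81, Slc16a1, Fxyd5, Ier5, Klhl24 and St3gal6, the last without unstimulated replicate 1 (adjusted p = 0.0853). With 3 libraries a group, differences of a few percent lie near the spread between libraries.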
